A study of Mus musculus with 2 samples.

Results

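The Fc receptor genes, 6 of the 32286 features counted, were followed through the cell classes of mouse bone marrow. They were taken by symbol: Fcgr1, Fcgr3 and Fcgr4, the activating receptors for IgG; Fcer1g, the signalling chain that these receptors share; Fcgr2b, the inhibitory IgG receptor; and Fcgrt, the neonatal Fc receptor. The study profiled haematopoietic cells of bone marrow with 3′ droplet single-cell RNA sequencing to compare expression after MYC overexpression in haematopoietic stem cells. The control library had the genotype Mx1Cre+/-;Rosa26+/+ and the MYC library the genotype Mx1Cre+/-;Rosa26LSL-MYC/LSL-MYC, so both carried Mx1-Cre, a Cre recombinase under an interferon-inducible promoter. In LSL-MYC a loxP-flanked stop keeps the transgene silent until Cre acts, after which the cell and its descendants can express it. Age, sex and Cre induction are not given in the sources used here. With 1 library per group nothing could be tested between them, and all intervals cover counting error only.

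Receptors for the Fc part of antibodies let innate immune cells read what antibodies have bound. The activating IgG receptors signal through the Fcer1g chain, whose ITAM motif recruits the kinase Syk, while Fcgr2b carries an ITIM motif in its own tail, recruits the phosphatase SHIP1 and raises the threshold for activation. Fcgr1 binds monomeric IgG with high affinity, whereas Fcgr3 and Fcgr4 bind IgG mainly in immune complexes. In mouse marrow, neutrophils and monocytes carry activating receptors, and B cells carry Fcgr2b as their Fc gamma receptor. Fcgrt pairs with beta-2-microglobulin inside the cell and returns IgG and albumin from endosomes to the surface.

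Of these genes 4 lie close together on chromosome 1 in build GRCm38, as annotated by GENCODE vM21. These are Fcgr2b at chr1:170958617-170976547 on the minus strand, Fcgr4 at chr1:171018920-171029761 on the plus strand, Fcgr3 at chr1:171051174-171064935 on the minus strand and Fcer1g at chr1:171229572-171234365 on the minus strand. Fcgr1 lies at chr3:96282909-96293969 and Fcgrt at chr7:45092990-45103851, both on the minus strand. All 6 are protein-coding. Fcgr2b and Fcgr3 have related sequences: 13.44% of the 31-base words of the annotated Fcgr3 transcripts also occur in those of Fcgr2b. In the last 500 bases, where 3′ reads start, the shared part was 0.5203% of the Fcgr3 words and 3.06% of the Fcgr2b words. No such word was shared between the other pairs of genes.

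The promoter windows of the 4 genes whose levels are described most are given here, because Fcgr4, Fcgr3 and Fcer1g are neighbours whose levels differed between the libraries in different ways. Each window is RefSeq sequence of GRCm38.p6 from 250 bases before to 50 after the start site, read 5′ to 3′ on the gene's strand. The windows are chr3:96293920-96294219 for Fcgr1, chr1:171059354-171059653 for the first of the start sites listed for Fcgr3, chr1:171018676-171018975 for Fcgr4 and chr1:171234300-171234599 for Fcer1g. Capitals mark matches to the motifs named below the sequences.
Fcgr1: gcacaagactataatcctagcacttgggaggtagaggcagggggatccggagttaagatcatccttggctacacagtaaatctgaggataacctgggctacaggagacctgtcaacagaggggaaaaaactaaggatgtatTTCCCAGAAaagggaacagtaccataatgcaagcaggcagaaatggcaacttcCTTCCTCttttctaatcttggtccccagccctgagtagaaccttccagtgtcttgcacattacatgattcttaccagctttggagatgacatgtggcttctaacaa
Fcgr3: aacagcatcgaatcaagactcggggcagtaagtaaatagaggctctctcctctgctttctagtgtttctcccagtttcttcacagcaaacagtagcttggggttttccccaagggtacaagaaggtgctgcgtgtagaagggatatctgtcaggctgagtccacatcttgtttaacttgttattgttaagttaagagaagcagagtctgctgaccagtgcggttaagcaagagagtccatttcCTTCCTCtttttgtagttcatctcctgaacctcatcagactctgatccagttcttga
Fcgr4: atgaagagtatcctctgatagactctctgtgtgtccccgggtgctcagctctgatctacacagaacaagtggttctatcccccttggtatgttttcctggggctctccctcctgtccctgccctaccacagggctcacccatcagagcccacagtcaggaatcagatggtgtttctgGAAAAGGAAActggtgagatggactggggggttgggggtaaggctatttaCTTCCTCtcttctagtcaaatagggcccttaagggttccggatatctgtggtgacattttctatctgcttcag
Fcer1g: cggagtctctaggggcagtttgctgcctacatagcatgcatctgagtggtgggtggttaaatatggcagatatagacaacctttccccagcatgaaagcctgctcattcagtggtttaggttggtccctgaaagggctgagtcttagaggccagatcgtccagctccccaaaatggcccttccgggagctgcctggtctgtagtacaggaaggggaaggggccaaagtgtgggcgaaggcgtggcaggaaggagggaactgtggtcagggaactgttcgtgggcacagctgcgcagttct

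Searched on both strands were 4 motifs: the E-box CACGTG, the gamma-activated site TTCNNNGAA, the interferon-stimulated response element (GAAA, any 2 bases, GAAA), and GAGGAAG, which holds the core read by the myeloid factor PU.1. Among 32851 promoter windows of the same length, 7.15% held the E-box, 8.298% the gamma-activated site, 3.443% the response element and 13.63% the PU.1 core. The gamma-activated site was found in Fcgr1, starting at position -109 from the start site, and the response element in Fcgr4, starting at position -73. PU.1 cores, in capitals as the reverse complement CTTCCTC, lay at -56 in Fcgr1, at -7 in Fcgr3 and at -23 in Fcgr4. No match to any of the 4 was found in the windows of Fcer1g, Fcgr2b and Fcgrt, and no E-box in the 7 windows of the 6 genes. These matches are letters in a window and were not tied to binding here.

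The libraries kept 14760 control cells, with 119905786 UMIs, and 12645 MYC cells, with 102740700 UMIs, with median depths of 5321.5 and 6014 UMIs per cell. Cells were grouped into 29 clusters without using any of the 6 genes, and 17 classes were named by marker genes; each name means cells that resemble that type by its markers, and all markers of every named class had at least 1 UMI in both libraries. The feature named MYC had 0 and 295 UMIs, respectively. Classes differed in size: macrophages were 71 cells in the control but 656 with MYC, and B progenitors 423 and 17. Called doublets made up 4.53% (control) and 1.95% (MYC) of cells, below the 13.7% and 11.6% that such loading predicts, and 97 barcodes occurred in both libraries. Low-UMI and unclear clusters stayed unnamed, with 17.6% and 21.9% of the cells.

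Levels are given as CPM: a gene's UMIs per 1000000 UMIs of the class sum in a library. Ranges in brackets are exact Poisson intervals at 95%, and where a pair of levels is given the control comes first. Each gene had its own place in the marrow. In the control library Fcgr1 was highest in the monocyte, macrophage and dendritic classes: it stood at 169.9 CPM (130.8 to 217) in macrophages, 55.3 in nonclassical monocytes, 51.6 in conventional dendritic cells and 32.4 in monocytes. The next class, plasmacytoid dendritic cells, had 2.63 CPM, and the neutrophil classes had between 0.358 and 0.792 CPM. The intervals of nonclassical monocytes and dendritic cells overlapped, and those of the 13 classes from plasmacytoid dendritic cells down each overlapped the next.

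Fcgr3 was spread over more classes. Control levels ran from 358 CPM (350 to 367) in mature neutrophils through 266 in basophils or mast cells, 239 in macrophages, 188 in nonclassical monocytes, 162 in granulocyte progenitors, 152 in monocytes, 136 in conventional dendritic cells and 121 in immature neutrophils. From basophils down to immature neutrophils each interval overlapped the next, while mature neutrophils stood above the rest. All other classes were at 34.7 CPM or lower. Among cells classed by their markers alone, which are not the cells of the T or NK class one for one, NK cells had 54.8 CPM of Fcgr3 in the control and T cells 16.2, and for Fcer1g these levels were 564 and 179 CPM. The 89 control NK cells and the 32 in the MYC library were too few to compare between the libraries.

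Fcgr4 had a steeper order than Fcgr3: 648 CPM (569 to 734) in control macrophages, 295 in nonclassical monocytes, 92.0 in mature neutrophils, 42.6 in conventional dendritic cells and 23.4 in immature neutrophils. The intervals of these 5 classes did not overlap each other, and the other 12 lay between 2.10 and 8.19 CPM. Classical monocytes, at 6.73 CPM, belonged to that low group. Fcgrt followed the monocyte and macrophage compartment too, with 207 CPM in control macrophages, 63.8 in nonclassical monocytes, 53.6 in conventional dendritic cells, 27.9 in monocytes, 16.3 in plasmacytoid dendritic cells and 11.6 in mature B cells, and no more than 2.98 CPM elsewhere. Fcgr2b was led by conventional dendritic cells, at 203 CPM (180 to 227), followed by nonclassical monocytes at 132 and macrophages at 114, while control mature B cells had 77.0 CPM, B progenitors 27.9 and plasma cells 40.9. Fcer1g was found in every class, from 37.3 CPM in early erythroid cells to 1635 in macrophages of the control.

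**Figure D1:**
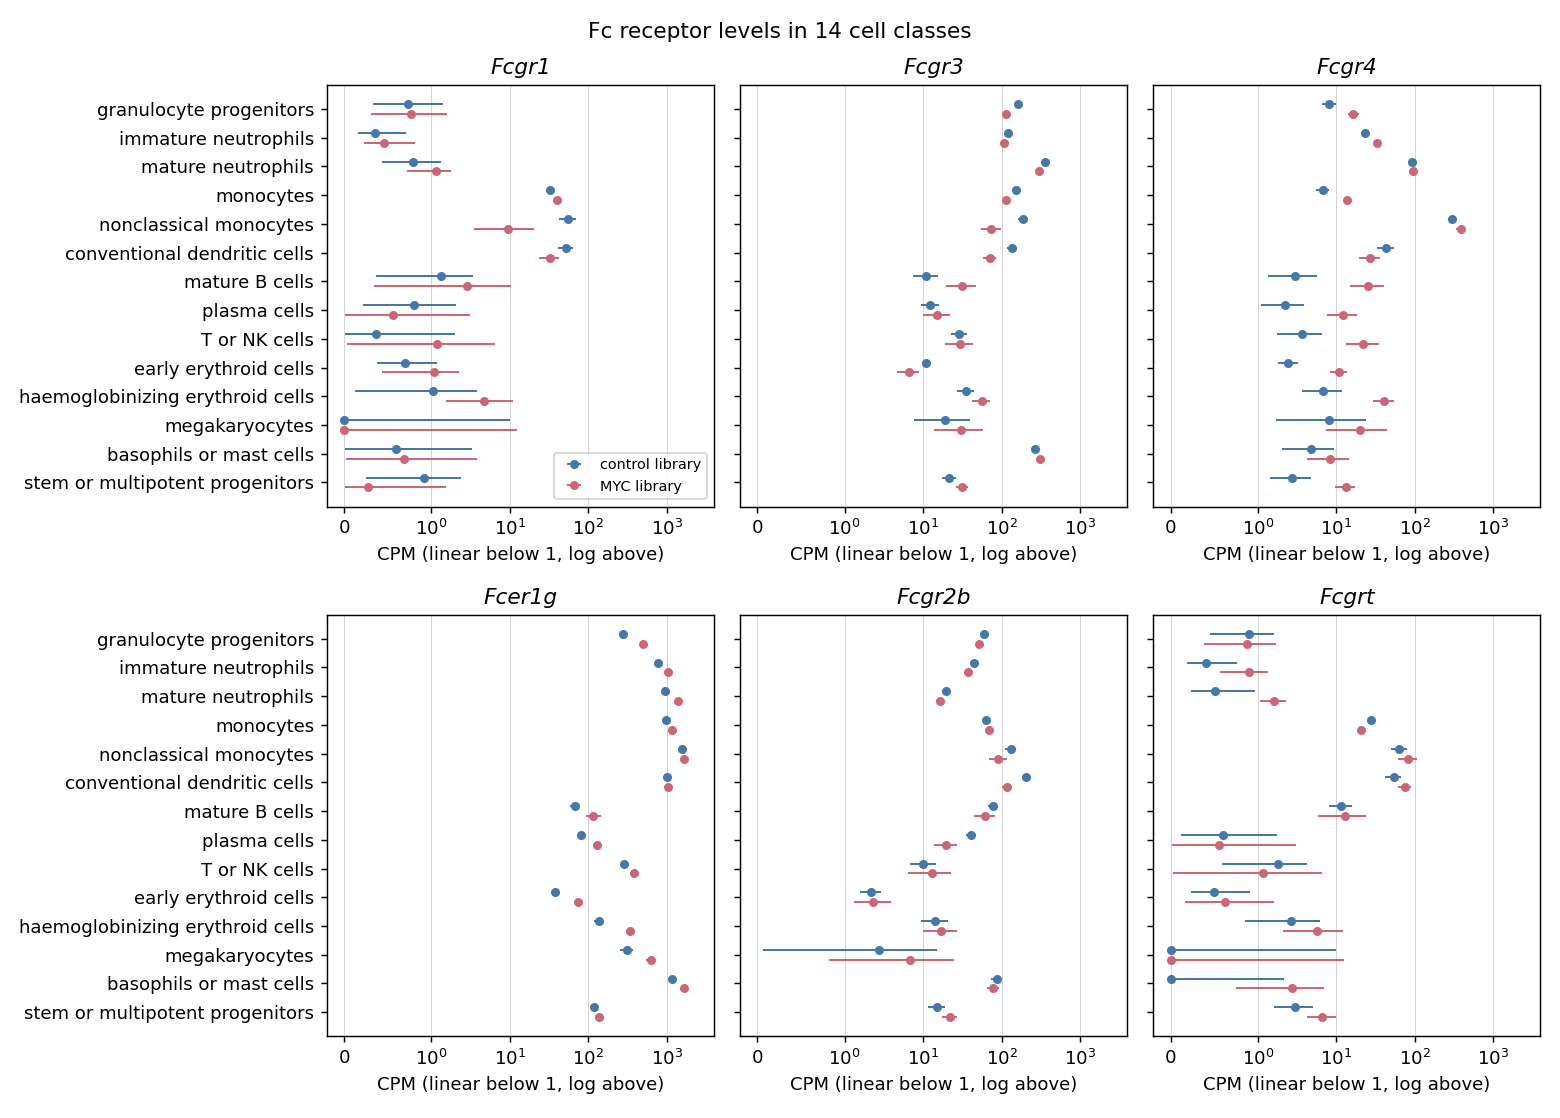
Level of each gene in CPM (x axis, linear below 1 and logarithmic above) in the 14 classes compared between the libraries (y axis). Points are class sums of the control (blue) and MYC (red) library and bars are exact Poisson 95% intervals; Fcgr1 is under 5 CPM outside monocytes and dendritic cells and Fcgrt under 7 CPM outside these and mature B cells, while Fcer1g is above 37 CPM in every class.

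Shares of cells with a UMI were taken after thinning cells to 2000 UMIs, which left out shallower cells, 391 control and 299 MYC cells among mature neutrophils. Fcer1g was seen in 81.7% of control mature neutrophils (80.4 to 82.9, exact Clopper-Pearson interval), 83.9% of monocytes and 92.3% of nonclassical monocytes, and with MYC in 92.6%, 85.8% and 93.5%. Fcgr3 was seen in 50.8% of control and 44.3% of MYC mature neutrophils, and Fcgr4 in 16.1% and 17.0%. Without thinning these Fcgr3 shares were 72.8% and 72.9% and the Fcgr4 shares 29.8% and 37.7%, at median depths of 3949 and 5309 UMIs over all mature neutrophils. Erythroid cells, which should lack these receptors, gave shares that free RNA can leave. In early erythroid cells these were 6.15% for Fcer1g, 2.40% for Fcgr3 and 0.673% for Fcgr4 in the control, and 12.8%, 1.31% and 1.31% with MYC. In haemoglobinizing erythroid cells the shares were higher, except that of Fcgr4 in the control. They were 12.5% for Fcer1g, 5.24% for Fcgr3 and 0.403% for Fcgr4 in the control and 30%, 6.67% and 10.0% with MYC. Median depths before thinning were 14098 and 17500 UMIs in early and 6561.5 and 6058 in haemoglobinizing erythroid cells, against 4153.5 and 5601 in the mature neutrophils used. Fcgrt was seen in 3.21% of control mature B cells, against 0.192% of control early erythroid cells.

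**Figure D2:**
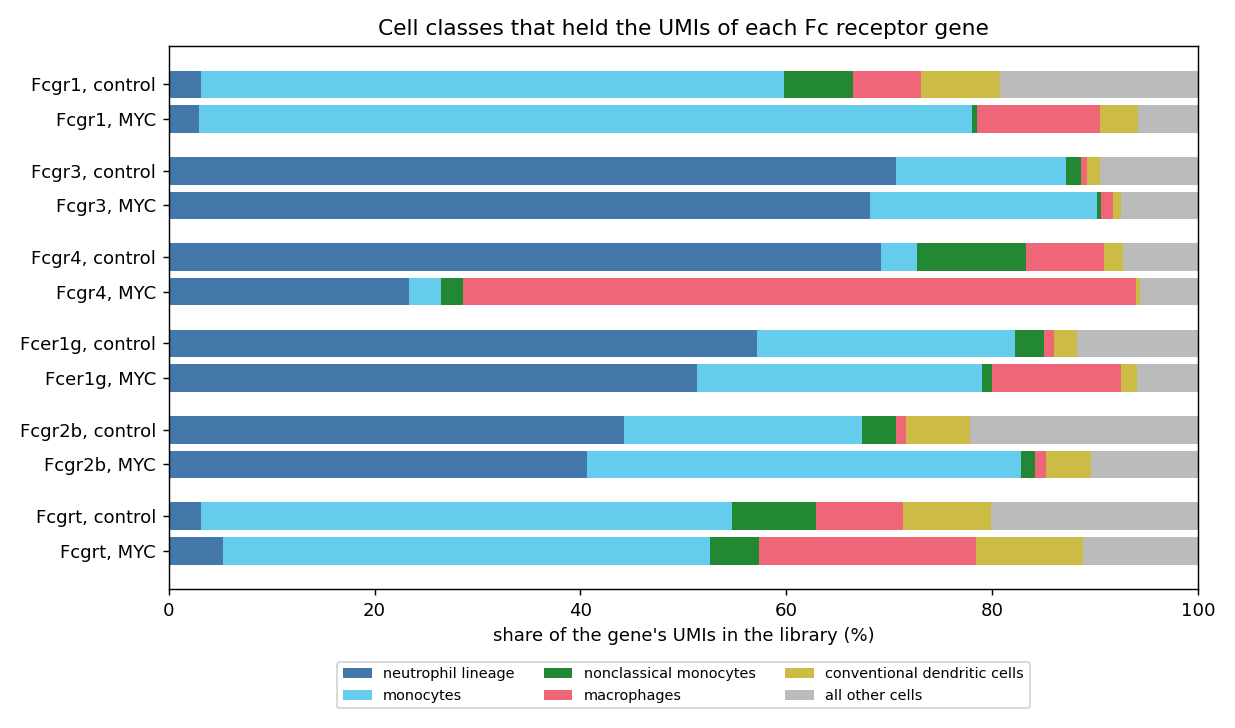
Share of each gene's UMIs (x axis, percent) that fell in each group of classes, for both libraries (y axis). Macrophages held 7.5% of control and 65.4% of MYC Fcgr4 UMIs, while monocytes held 56.6% and 75.1% of the Fcgr1 UMIs.

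For the comparison of the libraries, a value was compared where the class had 50 or more cells per library and the gene 50 or more UMIs over both, and it was called where the CPM differed by at least 1.5-fold. Macrophages were left out because no macrophage cluster had 50 cells in each library, which left 14 classes. Of the 53 values that could be compared, 13 were called higher in the MYC library, 8 lower and 32 lay within 1.5-fold. Over all genes in the same classes 12% of values were higher and 19.0% lower. The median gene was lower in the MYC library in most classes, by -0.28 (log2) in the neutrophil lineage, -0.16 in monocytes and -0.31 in mature B cells, but was higher by 0.63 in haemoglobinizing erythroid cells. Genes past 1.5-fold higher were 8.99% in immature neutrophils, 8.22% in mature neutrophils, 18.6% in conventional dendritic cells and 8.37% in basophils or mast cells, and 7.96% were lower in haemoglobinizing erythroid cells. Of the 53 values, 37 lay above the median of all genes of their class and 16 below. Granule transcripts of neutrophils and C1q transcripts of macrophages, which other classes should lack, also differed between the libraries, and their levels are given beside the results they moved with.

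**Figure D3:**
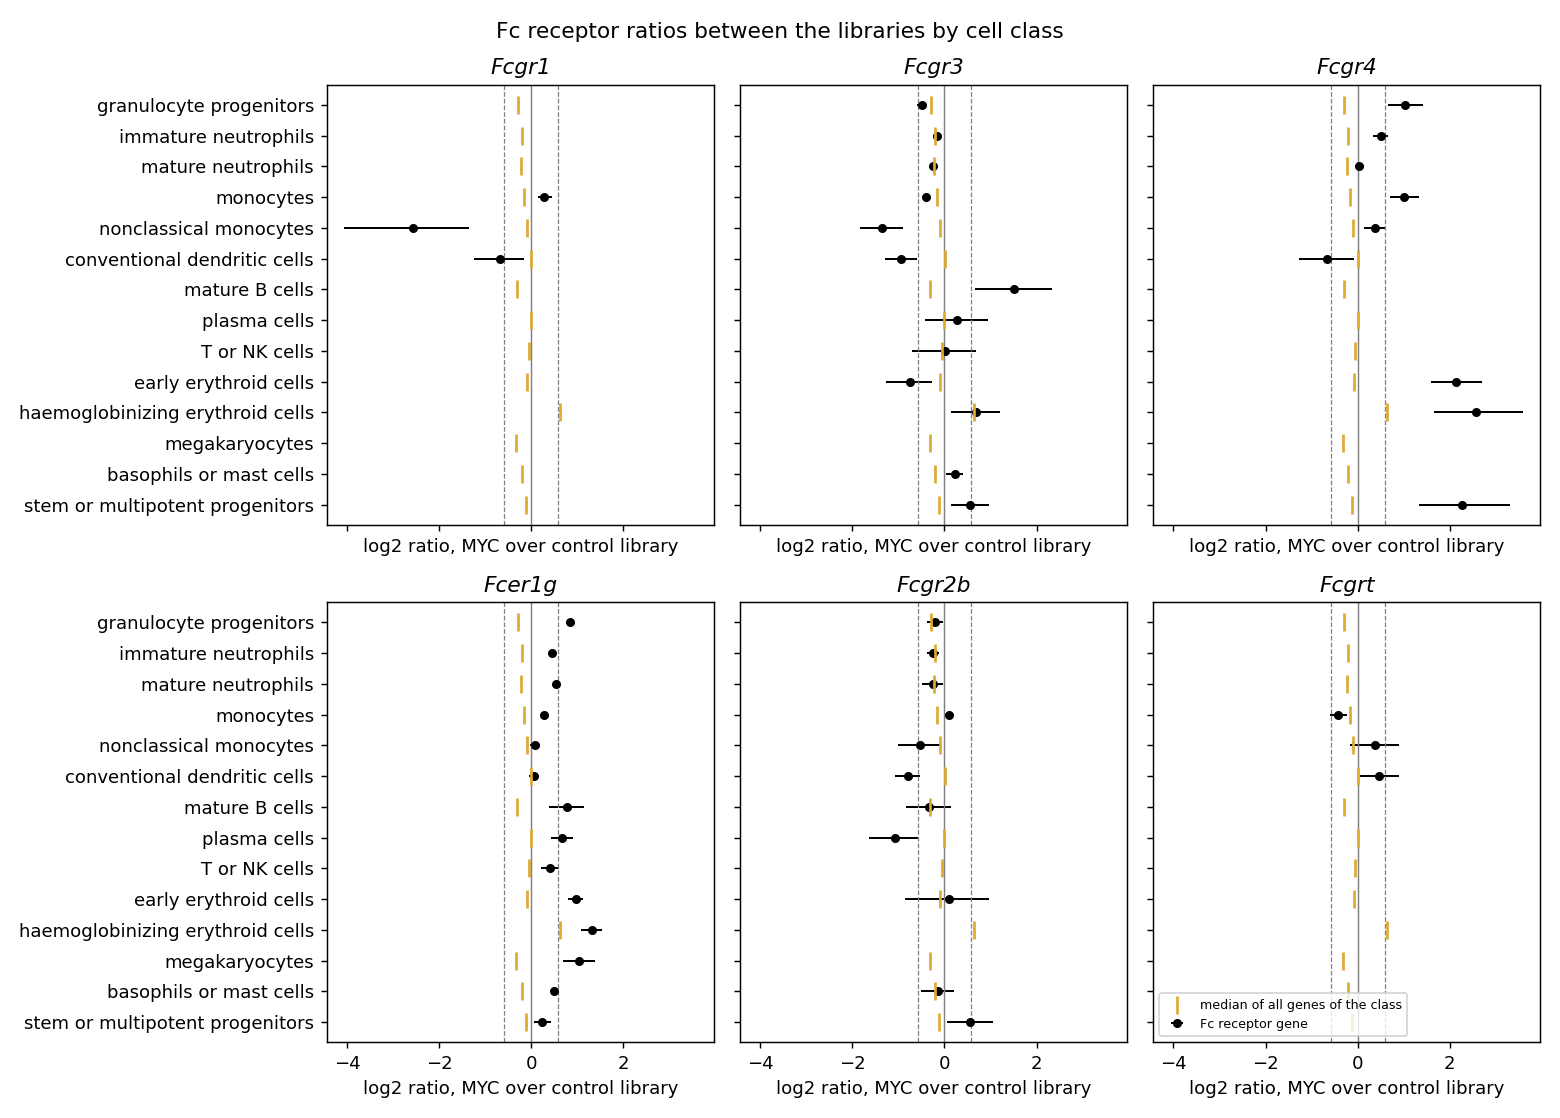
Log2 ratio of the MYC over the control library (x axis) for each gene in the 14 classes (y axis). Points with bars are ratios with exact 95% counting intervals, yellow ticks are the median of all genes of the class and dashed lines mark 1.5-fold; Fcer1g lies above 0 in all 14 classes, though not in nonclassical monocytes and dendritic cells once the 20 most abundant genes are left out, and Fcgr4 in 8 of 9.

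Fcer1g, the shared signalling chain, was higher in the MYC library in all 14 classes compared, past 1.5-fold in 6, with 12 counting intervals above 0, but 2 of the 14 turned when the 20 most abundant genes were left out of the total. Its excess over the median of all genes of a class ranged from 0.05 to 1.36 (log2). In granulocyte progenitors its level was 277 CPM in control and 501 in MYC cells (log2 0.85, 0.79 to 0.92). In immature neutrophils it was 762 and 1048 CPM, and in mature neutrophils 959 and 1398 CPM (log2 0.54, 0.52 to 0.57). Monocytes had 969 and 1170 CPM, basophils or mast cells, in which the chain is part of the IgE receptor, 1174 and 1660 CPM, and megakaryocytes, in which it pairs with the collagen receptor Gp6, 308 and 632 CPM. The smallest differences were those of nonclassical monocytes (1554 and 1635 CPM) and conventional dendritic cells (1001 and 1042 CPM), whose intervals held 0. These were the 2 that turned, to -0.08 and -0.19.

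The background of 1.5-fold higher genes was 5.03% in granulocyte progenitors, 6.99% in mature B cells, 18.5% in plasma cells, 14.3% in early erythroid cells, 53.4% in haemoglobinizing erythroid cells and 22.2% in megakaryocytes, the classes where Fcer1g was called. Among these, B and erythroid cells had low levels, such as 68.1 and 116 CPM in mature B cells and 37.3 and 72.8 CPM in early erythroid cells. In mature B cells the 7 granule genes summed to 6975 CPM in control and 18512 in MYC cells, in plasma cells to 11271 and 22296, and in early erythroid cells to 9796 and 13233. In haemoglobinizing erythroid cells they summed to 30993 and 82054 CPM, and in megakaryocytes to 26115 and 61600 CPM, where C1q was 4.96-fold higher. With an estimate of free RNA taken off, no Fcer1g value was given in plasma and erythroid cells. The part of free RNA in Fcer1g there was not tested in another way. Fcer1g lost its call in 4 of 9 alternatives in plasma cells, down to 0.20, and in 1 of 9 in megakaryocytes, at 0.45, and early erythroid cells, at 0.41. With an estimate of free RNA taken off, the log2 ratio of Fcer1g in mature B cells turned to -4.83, that of Fcer1g in T or NK cells to -0.07, and that of Fcer1g in megakaryocytes was 0.66.

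Within the neutrophil lineage, where 4.64% of all genes were 1.5-fold higher, Fcer1g was at 715 and 1074 CPM (log2 0.59, 0.57 to 0.61), and it was higher in all 7 clusters. The lineage value stayed past 1.5-fold in 4 of 11 alternatives, with 0.50 the lowest. Mature neutrophils were made up of different clusters in the libraries: cluster 2, led by Il1b and Csf3r, held 2464 control but 231 MYC cells, and cluster 6, led by Cxcl2, Stfa2l1 and Retnlg, held 105 and 1424. Only cluster 1, led by Mmp8 and Mmp9, was shared evenly, with 1578 and 1682 cells. Fcer1g was at 990 and 1432 CPM in cluster 1, 928 and 1349 in cluster 2 and 959 and 1351 in cluster 6. Over the 7 clusters of the lineage its log2 ratio lay between 0.48 and 0.85, with every interval above 0, against a median of all genes between -0.29 and -0.06. In the monocyte clusters 5 and 7 the ratios were 0.23 and 0.42.

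**Figure D4:**
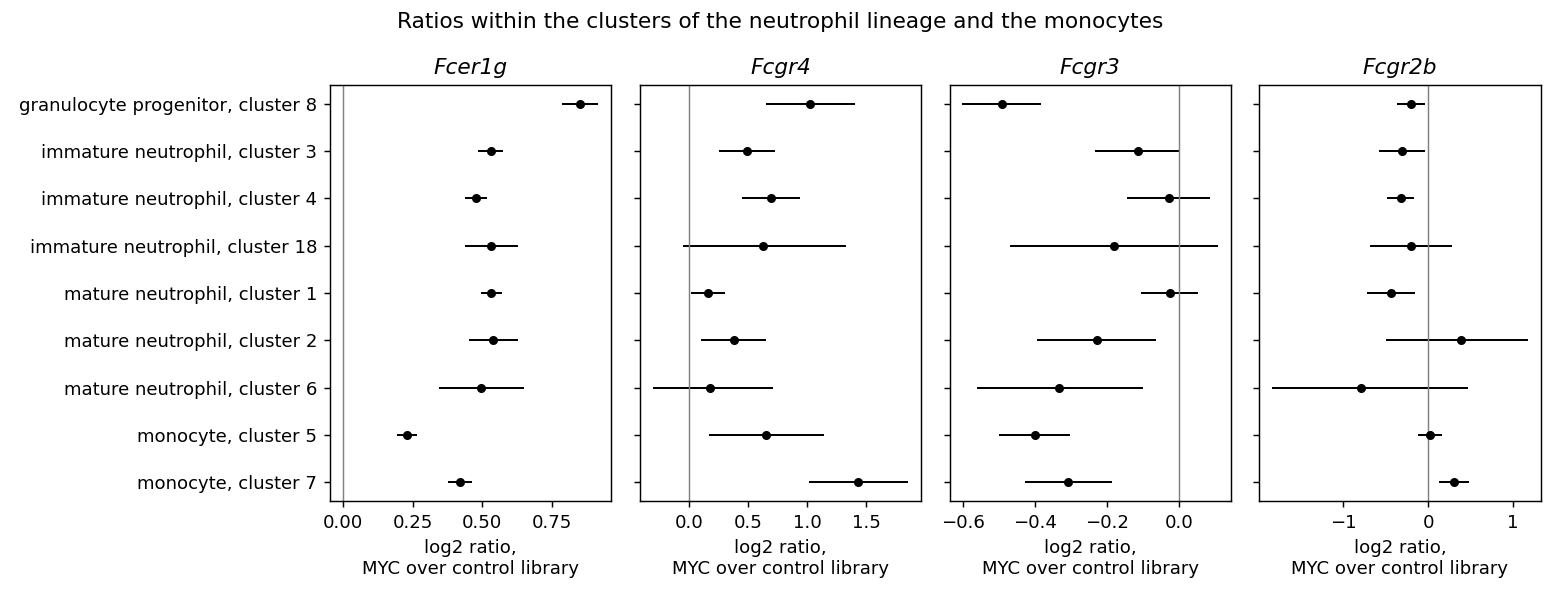
Log2 ratio of the MYC over the control library (x axis, a scale of its own in each panel) within the 7 clusters of the neutrophil lineage and the 2 monocyte clusters (y axis), with exact 95% counting intervals. Fcer1g lies between 0.23 and 0.85 in all 9 clusters and Fcgr3 below 0 in all 9, although 4 of its 7 neutrophil values lie above the median of all genes of their cluster.

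Fcgr4 had the largest ratio between whole libraries, 27.1 against 111 CPM, and most of it lay in 1 cluster. Cluster 11, led by C1qb, C1qc, Cd300e and Fcrl5, held 20 control and 629 MYC cells. It carried 64.8% of all Fcgr4 UMIs with MYC, against 6.08% in the control. Per UMI the cells of this cluster had like levels in both libraries, 1734 CPM (1501 to 1993) in control and 1857 CPM (1815 to 1900) in MYC cells, although 20 cells are too few for a comparison. Thinned to 2000 UMIs, 90.6% of MYC macrophages had an Fcgr4 UMI. The cluster's cell number, which differed, came from 1 library in each group.

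The other macrophage cluster, 27, led by Cd5l, Fcna, Mrc1 and Spic, held 51 control and 27 MYC cells. Its Fcgr4 level was 175 CPM (128 to 234) and 540 CPM (418 to 688), from cells that were also too few for a comparison. The clusters also differed in their other receptors. In the MYC library, cluster 11 had 35.4 CPM of Fcgr1, 30.7 of Fcgr3, 9.80 of Fcgr2b and 47.2 of Fcgrt, whereas cluster 27 had 164, 262, 49.1 and 401 CPM of the same genes. Fcer1g was at 3374 CPM in cluster 11 and 1572 in cluster 27. In the control, cluster 11 had 123 CPM of Fcgr2b (67.0 to 206) from 14 UMIs. Cluster 11 also carried Cd300e, a nonclassical monocyte marker, at 280 and 365 CPM, and Ace, another, at 201 CPM in its control cells but 2.01 CPM in its MYC cells. At resolution 2 a cluster led by the same genes matched nonclassical monocytes best and stayed unnamed, so the macrophage name rests on the clustering.

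In the neutrophil lineage Fcgr4 was higher in the MYC library in all 7 clusters, by 0.16 to 1.03 (log2), with 5 of the 7 intervals above 0. Levels in granulocyte progenitors were 8.05 and 16.4 CPM, and in immature neutrophils 23.4 and 33.2. In mature neutrophils, which had the most Fcgr4 of the lineage, the levels were 92.0 and 94.2 CPM (log2 0.03, -0.06 to 0.13). Classical monocytes had 6.73 and 13.6 CPM (log2 1.02, 0.71 to 1.34). The call was lost in 2 of 11 alternatives in monocytes, down to 0.28, and in 2 of 10 in granulocyte progenitors, down to 0.36, while the value of mature neutrophils turned in 2 of 10, to -0.05. The background was 5.03% of genes in granulocyte progenitors and 8.23% in monocytes. Nonclassical monocytes had 295 and 386 CPM, and in their cluster 25, with 120 and 70 cells, the levels were 456 and 442 CPM. The 1 lower value was Fcgr4 in conventional dendritic cells, at 42.6 and 26.9 CPM (log2 -0.66, -1.27 to -0.08), where 15.9% of genes were lower; within cluster 12, with 144 and 103 cells, it was 47.3 and 38.4 CPM (log2 -0.30, -0.91 to 0.29), so the call was lost. The other cluster of the class, 28, held 9 and 38 cells. The class value turned to 0.082 with doublets kept and to 0.81 with classes taken from markers alone.

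Fcgr4 was also higher where a cell should not carry it: 2.43 and 10.7 CPM in early erythroid cells, 6.84 and 40.6 CPM in haemoglobinizing erythroid cells, 2.75 and 13.2 CPM in stem or multipotent progenitors. C1q transcripts, which macrophages carried at 5410 and 5150 CPM, stood at 2.48 and 15.4 CPM in early erythroid cells, 9.47 and 76.5 CPM in haemoglobinizing erythroid cells and 2.06 and 14.9 CPM in stem or multipotent progenitors. For each C1q UMI there were 0.980 and 0.697 Fcgr4 UMIs in early erythroid cells, and 1.06 and 0.481 over all kept cells. In granulocyte progenitors C1q stood at 3.50 and 16.4 CPM and in monocytes at 3.95 and 11.3 CPM, so low Fcgr4 values there moved with C1q as well. C1q was also higher in immature neutrophils, at 2.19 and 13.2 CPM, with 10.7 and 2.52 Fcgr4 UMIs for each C1q UMI. In nonclassical monocytes there were 21.7 and 22.5 Fcgr4 UMIs for each C1q UMI, and in mature neutrophils 15.1 and 3.72. With free RNA, estimated from the granule genes, taken off, the log2 ratio was 2.44 for Fcgr4 in early erythroid cells (2.14 before) and 3.28 for Fcgr4 in stem or multipotent progenitors (2.27 before). The call was kept in all 10 alternatives in early erythroid cells (1.57 to 2.91), in all 5 that gave a value in haemoglobinizing erythroid cells (1.98 to 3.39) and in all 8 in stem or multipotent progenitors (1.28 to 3.28). That estimate was not applied to granulocyte progenitors, neutrophils or monocytes and gave no value in haemoglobinizing cells, and free RNA estimated from C1q was not tested. The background of genes called higher was 14.3%, 53.4% and 6.20% in these 3 classes.

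Fcgr3 was lower in neutrophils and monocytes of the MYC library by less than 1.5-fold, and in immature neutrophils it turned to 0.04 (log2) above the median of all genes. Its level was 162 and 115 CPM in granulocyte progenitors (log2 -0.49, -0.60 to -0.38). The levels were 121 and 108 CPM in immature neutrophils, 358 and 300 CPM in mature neutrophils (log2 -0.26, -0.31 to -0.20) and 152 and 116 CPM in monocytes (log2 -0.40, -0.47 to -0.32). Different clusters made up the mature neutrophils of the libraries, and within cluster 1 the Fcgr3 level was 272 and 267 CPM (log2 -0.03, -0.11 to 0.05). All 7 neutrophil clusters and both monocyte clusters gave a ratio below 0, with 3 of the 7 and both monocyte intervals below 0, although 4 of the 7 lay above the median of all genes of their cluster. For the neutrophil lineage as a whole the log2 ratio was -0.26, against a median of -0.28 over all genes, and under median-of-ratios scaling the sign turned, to 0.03. In monocytes it lay below the median of all genes, by -0.24 (log2).

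Past 1.5-fold lower were Fcgr3 in nonclassical monocytes (188 and 73.4 CPM, log2 -1.36, -1.84 to -0.90) and in conventional dendritic cells (136 and 71.1 CPM, log2 -0.94, -1.29 to -0.60). In these classes 18.2% and 15.9% of all genes were called lower. The difference was there within cluster 25 of the nonclassical monocytes, at 175 and 64.6 CPM, and within cluster 12 of the dendritic cells, at 150 and 90.1 CPM. Granule genes in nonclassical monocytes summed to 14623 and 57242 CPM. With an estimate of free RNA from these genes taken off, the log2 ratio of Fcgr3 in nonclassical monocytes was -2.13, and the value stayed past 1.5-fold lower in all 10 alternatives (-2.13 to -1.13). Early erythroid cells had 11 and 6.53 CPM, where 19.1% of genes were called lower, and 4 of 9 alternatives ended this call, with -0.03 the nearest to 0. Higher were mature B cells (10.9 and 31.1 CPM, from 33 and 22 UMIs) and haemoglobinizing erythroid cells (34.7 and 55.7 CPM, near the median gene of that class). The first lost its call in 1 of 9 alternatives, at 0.42, and the second in 4 of 7, down to 0.03. The background of higher genes was 6.99% and 53.4%. In mature B cells 2.27% of thinned control cells (1.18 to 3.93) and 1.64% of MYC cells (0.199 to 5.80) had an Fcgr3 UMI, and the 2.40% and 1.31% of early erythroid cells lay within these intervals, so no expression is read from them. Basophils or mast cells, with 266 and 310 CPM (log2 0.22, 0.03 to 0.41), were a class with a high level that was not lower.

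Fcgr1, the high-affinity receptor, could be compared in 3 classes. Monocytes had 32.4 and 39.6 CPM (log2 0.29, 0.14 to 0.44), but Fcgr1 in monocytes turned in 3 of 11 alternatives, to -0.14 at the lowest, and the monocyte clusters did not share this difference. In cluster 5, led by Klf4, F13a1 and Lgals1, the levels were 14.3 and 27.4 CPM (log2 0.94, 0.68 to 1.198), and in cluster 7, led by Vcan, Fn1 and Ccr2, they were 71.6 and 72.2 CPM (log2 0.01, -0.18 to 0.21). Nonclassical monocytes had 55.3 and 9.37 CPM, from 65 and 6 UMIs (log2 -2.56, -4.06 to -1.36). Of the 65 control UMIs, 50 came from cluster 26, with 70 control and 11 MYC cells, so the makeup of the class moved with this value. Within cluster 26 the levels were 93.3 CPM (69.3 to 123) and 0 CPM (0 to 28.5), from too few MYC cells for a comparison. Within cluster 25 they were 23.4 and 11.7 CPM from 15 and 6 UMIs, with intervals that overlapped. The level was thus lower within both clusters as well. Dendritic cells had 51.6 and 32.0 CPM (log2 -0.69, -1.23 to -0.15), and 54.9 and 38.4 CPM within cluster 12 (log2 -0.52, -1.11 to 0.06), where the call was lost.

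Fcgr1 was also high in cluster 24, led by the interferon-induced genes Cxcl10, Ifit2 and Ifit3. Its best match was monocytes, but its only marker among the leading genes, Ifi205, was that of dendritic cells, so it stayed unnamed. It held 51 control and 5 MYC cells. Fcgr1 stood at 268 CPM (223 to 321) in the control cells and 269 CPM (157 to 431) in the 5 others, an interval that overlapped the 202 CPM (151 to 264) of control cluster 27, and the cluster held 12.4% of all Fcgr1 UMIs of the control. Fcgr4 was at 31.1 CPM in its control cells and Fcgr2b at 131 CPM. This cluster was picked out after its values were seen.

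Fcgr2b, the inhibitory receptor, was called lower in 2 of the 11 classes compared, conventional dendritic cells (203 and 117 CPM, log2 -0.80, -1.07 to -0.53) and plasma cells (40.9 and 19.5 CPM, log2 -1.07, -1.63 to -0.55), and higher in none. The background of lower genes was 15.9% and 17.6%. Within dendritic cell cluster 12 the levels were 212 and 156 CPM (log2 -0.44, -0.73 to -0.16), which ended the call, as did 2 of 9 alternatives, to -0.55. In the neutrophil lineage levels were 39.6 and 32.7 CPM (log2 -0.28, -0.37 to -0.19), which turned to 0.01 relative to the median of all genes. In that lineage 22.1% of all genes were called lower. Over the B lineage Fcgr2b was called lower (46.4 and 30.2 CPM, log2 -0.62, -0.98 to -0.27), where 41.4% of genes were lower and 8.49% higher, and 17 of its cells were B progenitors with MYC against 423 in the control. That call was lost in 2 of 10 alternatives, down to -0.17. Along the lineage the level dropped from 60.0 CPM in control granulocyte progenitors to 44.2 in immature and 19.7 in mature neutrophils, and from 52.1 to 37.3 and 16.6 CPM with MYC. Monocytes had 64.2 and 68.6 CPM (log2 0.10, -0.01 to 0.21; -0.01 without the 20 most abundant genes), and mature B cells 77.0 and 60.8 CPM, whose interval held 0.

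The balance of activating to inhibitory receptors was taken as the UMIs of Fcgr1, Fcgr3 and Fcgr4 for each UMI of Fcgr2b, and was set only between classes and libraries. Along the neutrophil lineage it was highest at the mature stage. In the control it was 2.85 (2.62 to 3.10) in granulocyte progenitors, 3.27 in immature neutrophils and 22.9 (20.5 to 25.5) in mature neutrophils, and in the MYC library 2.54, 3.79 and 23.9. Within clusters the ratio of MYC over control was 1.37 (1.12 to 1.68) in cluster 1, 1.25 (1.02 to 1.52) in cluster 3 and 1.35 (1.18 to 1.55) in cluster 4, and the intervals of the other 4 neutrophil clusters held 1. For the whole neutrophil lineage it was 6.42 and 7.004, a ratio of 1.09 (1.02 to 1.17) that did not keep its direction under all settings. Monocytes had 2.98 and 2.46, a ratio of 0.825 (0.754 to 0.901), and both monocyte clusters lay below 1, at 0.883 and 0.760. Conventional dendritic cells stood at 1.14 and 1.12.

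Mature B cells had 0.197 activating UMIs for each Fcgr2b UMI in the control, the lowest of the classes compared, and 0.977 with MYC, a ratio of 4.95 (2.81 to 8.68). Plasma cells had 0.376 and 1.43, a ratio of 3.80 (2.22 to 6.51). With doublets kept, the log2 activating to inhibitory ratio in mature B cells dropped from 2.31 to 0.97. The B cell counts behind these were small, with 46 and 42 activating UMIs against 233 and 43 of Fcgr2b. The activating UMIs of mature B cells were 4 and 2 of Fcgr1, 33 and 22 of Fcgr3 and 9 and 18 of Fcgr4. No expression of Fcgr3 is read in mature B cells, as given above. Granule genes were 2.65-fold and C1q 11.8-fold higher in mature B cells with MYC, and 1.98-fold and 9.67-fold in plasma cells. With an estimate of free RNA from the granule genes taken off, the log2 activating to inhibitory ratio in mature B cells was 2.73. For plasma cells no such ratio is given here. Free RNA estimated from C1q was not tested in either class. Macrophages held 9.26 activating UMIs for each Fcgr2b UMI in the control and 173 with MYC, in different clusters.

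**Figure D5:**
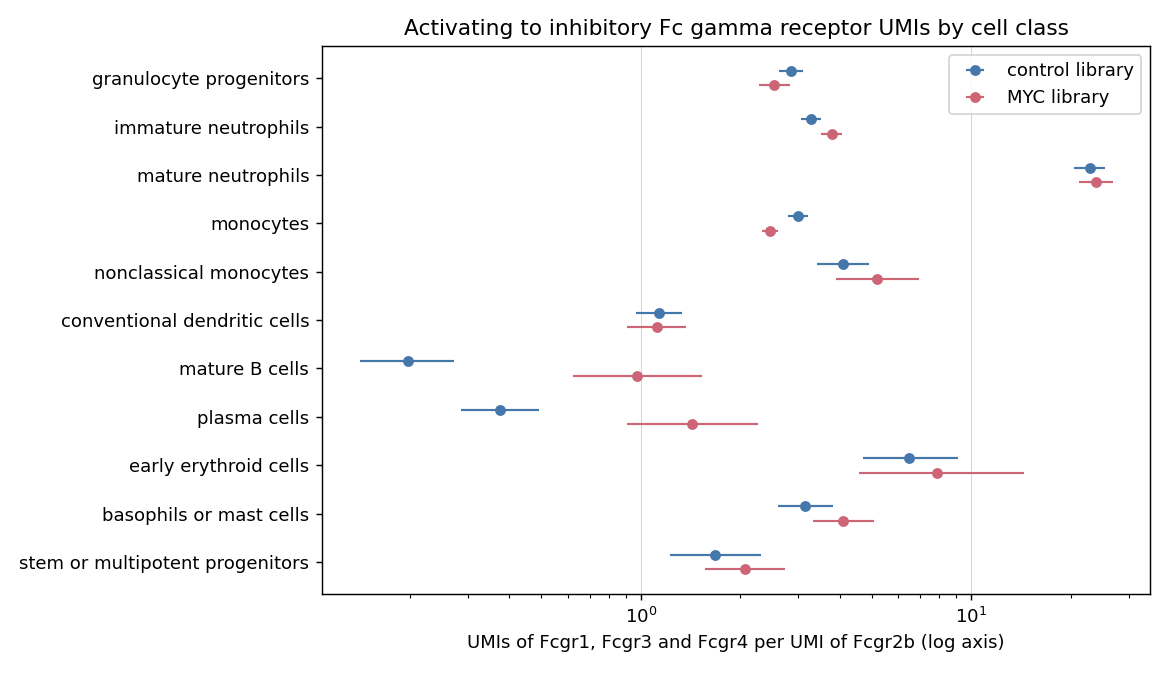
UMIs of Fcgr1, Fcgr3 and Fcgr4 for each UMI of Fcgr2b (x axis, logarithmic) in the 11 classes with 50 or more Fcgr2b UMIs over both libraries (y axis). Blue and red points are the control and MYC library with exact 95% counting intervals. Mature neutrophils are highest at 22.9 and 23.9 and mature B cells lowest in both libraries, at 0.197 and 0.977. With MYC the interval of mature B cells (0.623 to 1.53) overlaps those of conventional dendritic cells and plasma cells.

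Fcgrt was compared in 3 classes and called in none of these. Over the neutrophil lineage it was called higher, at 0.554 and 1.14 CPM from 29 and 59 UMIs (log2 1.04, 0.38 to 1.74), in all 10 alternatives as well, where 4.64% of genes were higher. C1q in the lineage stood at 3.82 and 18.0 CPM, and its part in this low value was not tested. Monocytes had 27.9 and 20.9 CPM (log2 -0.42, -0.60 to -0.24), and both monocyte clusters were lower, by -0.34 and -0.44. Nonclassical monocytes had 63.8 and 82.8 CPM (log2 0.38, -0.16 to 0.90), but the direction was kept in 5 of 10 alternatives, with a lowest value of -0.25, and cluster 25 had 96.9 and 90 CPM. Fcgrt was at 53.6 and 74.3 CPM in conventional dendritic cells (log2 0.47, 0.04 to 0.90). Its partner B2m, the light chain of the receptor, had 1491 and 1081 CPM in monocytes (log2 -0.46, -0.49 to -0.44), and was past 1.5-fold lower in immature neutrophils (-0.82), mature neutrophils (-0.92), nonclassical monocytes (-0.62) and dendritic cells (-0.78), but past 1.5-fold higher in megakaryocytes (0.78). In the 4 former classes 17.8%, 21.8%, 18.2% and 15.9% of all genes were lower, and in megakaryocytes 22.2% were higher. Relative to the median gene of the class, Fcgrt lay at -0.26 in monocytes, and at 0.47 in dendritic cells.

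Genes that work with the receptors were read from 5 lists, by counts only. Of 16 genes of activating Fc receptor signalling, 13 were measured in monocytes: none was called higher and 2 lower, Syk, the kinase that binds the phosphorylated ITAM (136 and 89.2 CPM, log2 -0.61), and the adaptor Lcp2 (log2 -0.60). The list's median log2 ratio was -0.38 against -0.16 for all genes, and 16.6% of all genes were called lower in monocytes. Highest were Tyrobp, another ITAM chain (log2 0.21), and the adaptor Lat2 (0.18). In mature neutrophils 1 of 13 measured genes was higher and 4 lower, with a median of -0.47 against -0.23, where 8.22% of all genes were higher and 21.8% lower. In early erythroid cells 4 of 12 were higher and none lower, where 14.3% of all genes were higher and 19.1% lower, C1q was 6.21-fold and granule genes were 1.35-fold higher, and their part was not tested.

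Of 10 genes of inhibitory signalling, all 10 were measured in monocytes, where 2 were lower and none higher: Inpp5d, which encodes the phosphatase SHIP1 (104 and 66.2 CPM, log2 -0.65), and Sirpa, a receptor of the don't-eat-me ligand Cd47 (log2 -0.63). Of all genes in monocytes 16.6% were lower and 8.23% higher, so 2 of 10 is near the background, and the list's median was -0.18 against -0.16. Among its genes Cd300a (0.22) and Dok2 (0.21, -0.19 to 0.62) had the highest values. Among other receptors that pair with the Fcer1g chain, 4 of 8 were measured in monocytes. The activating paired receptors Lilra6 (65.8 and 16.8 CPM, log2 -1.97, -2.14 to -1.81) and Pira2 (log2 -0.63) were lower, Clec4e, a receptor of mycobacterial glycolipid also called Mincle, was higher (14.5 and 30.6 CPM, log2 1.07, 0.87 to 1.29), and Clec4d stood at -0.03. Lilra6 and Pira2 belong to a family of near-identical genes, so counts may be split among its members. Of 12 other immunoglobulin-binding receptors, 2 were measured in monocytes, Trim21, a cytosolic antibody receptor (14.6 and 7.02 CPM, log2 -1.05), and Fcrl1 (log2 -0.39, -1.18 to 0.41). Fcrl5, one of the genes that led macrophage cluster 11, had 24.5 and 42.4 CPM in mature B cells (log2 0.80, 0.13 to 1.43), where C1q was 11.8-fold higher. The low-affinity IgE receptor Fcer2a was lower there (238 and 146 CPM, log2 -0.71), so 1 of 6 measured genes of the list was higher and 1 lower, against 6.99% and 29.0% of all genes.

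Genes among the 3 most like each receptor across 32 class and library sums, by Pearson's r of log2(CPM + 1), are given as a description, since sums of 1 library share depth and free RNA. For Fcgr1 they were Clec4a1 (0.93), Aif1 (0.93) and Pid1 (0.92), and for Fcgr3 Igsf6 (0.91) and Myo1f (0.88). Fcgr4 was most like Cd300e (0.89), Slc11a1 (0.87) and Ear2 (0.84). Fcer1g was most like Tyrobp (0.92), Itgb2 (0.88) and Myd88 (0.88). Those like Fcgr2b included Napsa (0.88) and Man2b1 (0.81), and Fcgrt was most like Ctsa (0.91), Ly86 (0.91) and Gngt2 (0.90).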

How the data were processed

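Whole-number UMI counts per gene and cell barcode were used as deposited. Per the labels' protocols libraries were made with a Chromium 3′ kit, and the submitters' processing notes name Cell Ranger 6.0, Seurat and GRCm38; per the file headers the counts came from cellranger 6.0.0. No replicate library exists in either group, so no test was run. Cells were kept with at least 500 UMIs, 200 genes and under 10% mitochondrial UMIs, and doublets called by Scrublet (scanpy 1.11.5) were removed. Counts per cell were scaled to 10000, and 2000 variable genes, without the receptors, list genes, Myc and the antigen receptor, ribosomal and mitochondrial genes, gave 30 components, 15 neighbours and Leiden clusters (leidenalg 0.10.2, resolution 1, seed 0). A cluster took the type of 20 with the best marker score, if 3 markers were seen in 10% of its cells and no other class had more of the 10 leading genes.

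Chosen once the data were known, further rules left unnamed any cluster with median UMIs under 1/3 of its library's, unless 3 of the 10 leading genes were markers of the type, divided clusters with tied markers and 100 or more cells per library once at resolution 0.3, and left out classes with no cluster of 50 cells in each library. Intervals are exact at 95%: Poisson for levels, conditional binomial for ratios, Clopper-Pearson for shares, and 3 counts limit a share of 0. Scripts were tested on simulated data. The members and lists were chosen with earlier results of these data known. Named were all 6 members, the 3 genes most like each (some are not reported here), and from each list the 2 lowest and 2 highest in monocytes; other genes named by cluster lead or marker were chosen after their values were seen. Alternatives varied doublets, resolution, filters, scaling, the mean over cells, marker-only classes and free RNA. Free RNA was not taken off in granulocyte progenitors, neutrophils and monocytes, so where it is counted among their alternatives it could not change the value.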

Additional observations from a re-analysis of the deposited data

Results flagged for a closer look

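Fcgr3 had ratios in opposite directions in different classes, and the differences between classes were not tested. Its log2 ratio (MYC over control) was 1.51 in mature B cells and 0.68 in haemoglobinizing erythroid cells, but -1.36 in nonclassical monocytes, -0.94 in conventional dendritic cells and -0.75 in early erythroid cells. Fcgr4 likewise stood at -0.66 in conventional dendritic cells and, in the other direction, at 1.03 in granulocyte progenitors, 1.02 in monocytes, 2.14 in early erythroid cells, 2.27 in stem or multipotent progenitors and 2.57 in haemoglobinizing erythroid cells, with no test of these differences.

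Clusters outside the named classes also held receptor UMIs, some more and some less frequent in the MYC than in the control library. Over all unnamed cells Fcgr1 was lower (52.2 and 21.4 CPM, log2 -1.29, -1.76 to -0.84), as was Fcgr3 (139 and 92.4 CPM, log2 -0.59, -0.83 to -0.36). Of the 150 control Fcgr1 UMIs, 121 came from cluster 24, with 51 control and 5 MYC cells at 268 and 269 CPM. Within cluster 0 Fcgr1 was not lower, at 12.5 and 15.2 CPM (log2 0.28, -0.47 to 1.04). In cluster 0, of low UMI count, the log2 ratio was 1.92 for Fcgr4 (38.1 and 145 CPM) and 0.79 for Fcgrt (10.8 and 18.6 CPM), but -0.45 for Fcgr3 (129.5 and 95.1 CPM). The macrophage transcripts C1qa (20.2 and 87.9 CPM) and C1qb (17.0 and 106 CPM) moved the same way there, and at resolution 0.5 low-UMI cells fell into a cluster of 2133 control and 331 MYC cells and another of 383 and 2388. Cluster 22, led by stromal genes such as Cxcl12 and Igfbp5, gave 2.55 for Fcgr4 (42.1 and 247 CPM) and 1.04 for Fcer1g (369 and 757 CPM), but -0.79 for Fcgrt (200.2 and 116 CPM), whose interval held 0. C1qa was at 15.8 and 121 CPM in cluster 22, and C1qb was at 194 CPM with MYC and had no UMI in the control. The part of macrophage RNA in these values was not tested.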

How the results depend on the processing

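The number of receptor values at least 1.5-fold higher in the MYC library was 13 and ranged from 9 to 18 over 10 alternatives; the number lower was 8, but 2 at resolution 0.5 and 5 under 5% mitochondrial UMIs. Among called values, directions turned for Fcgr4 in conventional dendritic cells (0.082 with doublets kept, 0.81 with markers alone) and for Fcer1g in mature B cells (-4.83 with free RNA taken off); the cause was not tested. Uncalled values turned too, among them Fcgr1 in monocytes (3 of 11 alternatives, lowest -0.14), Fcgrt in nonclassical monocytes (5 of 10, lowest -0.25), Fcer1g in conventional dendritic cells (3 of 9, lowest -0.19) and Fcer1g in T or NK cells (1 of 10, -0.07). In the neutrophil lineage, settings moved values beyond their counting interval. Fcgr3 in neutrophil lineage (log2 -0.26) became -0.31 at resolution 2, -0.32 with markers alone, -0.34 as a mean over cells, 0.027 with median-of-ratios scaling and -0.20 with clusters weighted equally, a setting chosen after seeing the data. Fcer1g in neutrophil lineage (0.59) became 0.54 at resolution 2, 0.50 under 5% mitochondrial UMIs, 0.53 with markers alone, 0.53 as a mean over cells, 0.87 with median-of-ratios scaling, 0.62 without the 20 most abundant genes and 0.57 with clusters weighted equally. The activating to inhibitory ratio in neutrophil lineage (log2 0.13) became -0.0099 at resolution 2, -0.0057 with markers alone and -0.0060 as a mean over cells. Low counts limit Fcgr1 and Fcgrt to 3 classes each. No paired analysis was possible because there was 1 library per group.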
